A study of Homo sapiens with 20 samples.

Results

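Gene expression after siRNA against LSD1 was measured in LNCaP, an androgen-responsive human prostate cancer line that came from a lymph node metastasis, grown throughout in full serum. The samples titled LNCaP siLSD1 or LNCaP siNTC make up this experiment, 6 of the 20 arrays of the series, with 3 per group. All 6 cultures were plated at 230K cells per well and transfected with siRNA at 50 nM with Dharmafect 3. They were then grown for 96 h in RPMI with 10% fetal bovine serum, which carries steroids. By the labels the groups differ in the siRNA, siLSD1 or the control labelled siNTC, which of the labelling kits served which sample is unknown, and the RNA of 2 wells was pooled for each of the 3 biological replicates. The labels do not say whether the replicates came from separate passages or days, so the p-values rest on the spread between these 6 samples alone, which may be technical. The sources used here state no siRNA sequence, and siLSD1 is a single label. What this siRNA does through its own sequence and what the loss of LSD1 does cannot be told apart, which holds for every result that follows. A second siRNA experiment of the series serves as the closest comparison. Its 6 arrays hold C42B, a castration-resistant derivative of LNCaP, 3 with siLSD1 and 3 with siNTC, transfected for 6 h and kept for 96 h in 10% charcoal-stripped serum, from which steroids are depleted. The remaining 8 arrays hold C42B kept for 72 h in such medium and then given dihydrotestosterone (DHT), a potent androgen, at 100 nM or ethanol as vehicle for 16 h, 4 arrays each.

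LSD1, encoded by KDM1A, removes methyl groups from histone lysines and works in a complex with the scaffold CoREST (RCOR1) and the deacetylases HDAC1 and HDAC2. In this form it is known as a repressor of transcription, and in prostate cells it has also been tied to the response to androgens. In other cancer cells its loss has been linked to transcripts of endogenous retroviruses and to the interferon response, in which cells sense double-stranded RNA and switch on a large set of antiviral genes.

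Each value is the log2 of the deposited intensity of a probe set, and the brightest probe set naming 1 gene over all 20 arrays stood for each of 19775 genes. Of the passing genes picked by the selection rules given below, 133 have a further bright probe set. It passed the same way for 109 of them, with over 1.5 times the log2 change for 12, among them IFIT3, RIGI, KLK2, KLK4 and OCLN. For 24 no further bright one passed the same way, and for 6 a further bright one passed the opposite way. A level below 6 on this scale was called dim, since 6 of 8 genes typical of other tissues, such as albumin (ALB), lay there in both groups. Pairs of siLSD1 arrays differed by an SD of 0.135 to 0.157 (log2, over all probe sets but controls) and pairs of siNTC arrays by 0.167 to 0.209, against 0.287 to 0.329 between the groups. The siNTC array 1 was the farthest from its own group. The 3′ minus 5′ log2 signal of actin, a gauge of RNA integrity, ran from 0.93 to 1.09 in siLSD1 arrays and overlapped the 0.82 to 0.98 of siNTC arrays. All 8 measured markers of luminal prostate cells were bright, and the 3 leukocyte markers measured and both basal keratins were dim in both groups. Of 6 stroma markers only 3 were dim in both groups, and of 3 endothelial markers only 1. Their highest group means were 7.90 for the stroma marker COL1A1 and 7.73 for the endothelial marker VWF. The summed luminal marker signal lay at 14.81 to 14.87 in siNTC arrays and at 15.10 to 15.16 in siLSD1 arrays (log2), and its part in other results was not tested.

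KDM1A itself separated the groups completely, as 40.1% of all genes and 99.8% of the genes that passed did. Its log2 intensity was 7.26, 7.40 and 7.25 with siLSD1 and 9.95, 10.05 and 10.23 with siNTC, a fall of 85.4% (log2 fold change −2.78 ± 0.08, adjusted p = 2.42e-06). The two-sided exact permutation test gave p = 0.1, the smallest value that 3 arrays against 3 allow. The partners of LSD1 moved little beside it. HDAC2, one of the deacetylases of the complex, fell by 0.51 ± 0.07 (log2), from 11.31, 11.46 and 11.52 with siNTC to 10.93, 10.87 and 10.97 with siLSD1, without overlap. Its paralog HDAC1 was at 0.04 ± 0.05 and did not pass the threshold, an adjusted p under 0.05 over all genes. Of 21 measured genes of the complex and its relatives 3 passed higher and 3 lower, with a median log2 fold change of −0.03. Of all genes tested 13.4% passed higher and 12.5% lower, with a median of 0.01. The 3 higher genes were the zinc finger protein ZNF217 (0.35 ± 0.09), the second flavin-dependent histone demethylase KDM1B (0.28 ± 0.07) and RCOR1 (0.20 ± 0.06). None of these calls was stable, since 1 remained without siLSD1 array 2 or without siNTC array 3 and 0 without siLSD1 array 3. REST, the repressor that recruits this complex to neuronal genes, was at −0.08 ± 0.24, with the widest error of the list.

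The response was broad. A total of 5120 genes passed, 25.9% of those tested, 2640 of them higher with siLSD1 and 2480 lower, with median sizes of 0.39 each on the log2 scale. Larger changes were rarer, with 131 genes (0.662%) higher and 204 (1.03%) lower by at least 2-fold. Genes for cell division took a larger share of the large falls than of all genes, since 85 of the 204 (41.7%) belong to 7 lists covering mitosis, kinesins, cyclins, CDK inhibitors, E2F and MYB factors, DNA replication and DNA repair, against 1.13% of all genes. None of the 131 large rises did. Of these rises 9 (6.87%) belong to 5 lists of interferon, RNA-sensing, chemokine and antigen-presenting genes, against 0.637% of all genes, and none of the large falls did. Most of the large rises lie outside the 40 lists, which hold 25 of the 131 and 98 of the 204 large falls.

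**Figure D1:**
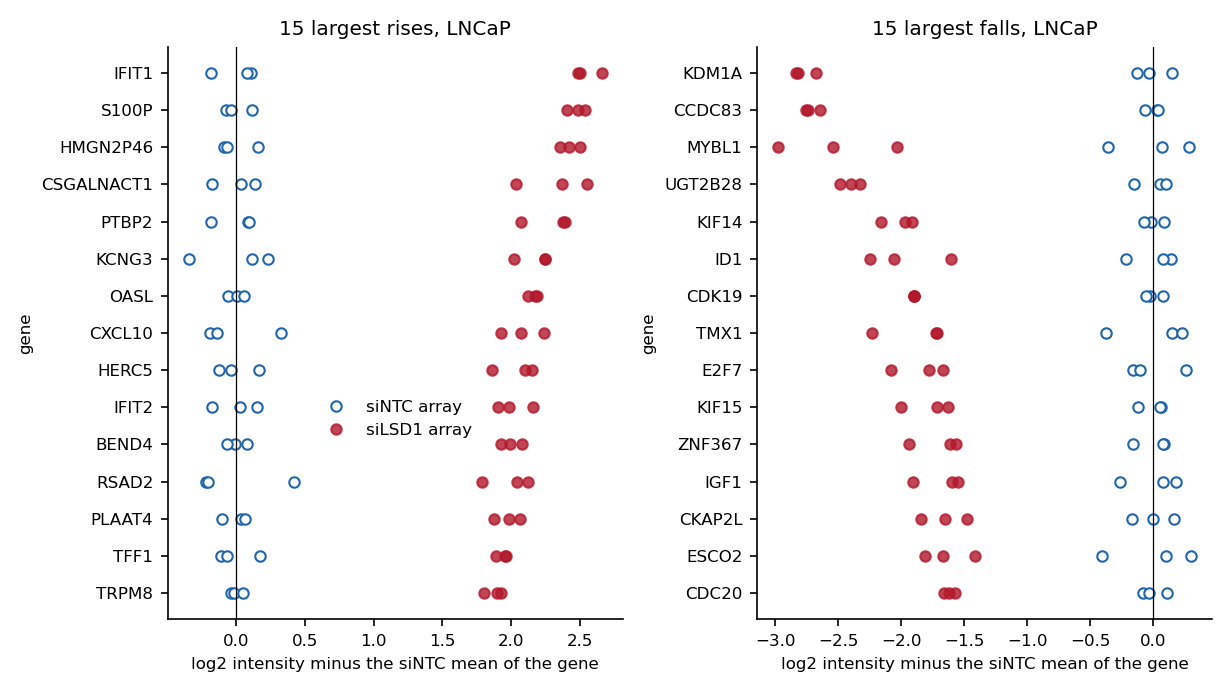
Each row is a gene and each point an array, placed at its log2 intensity minus the mean of the 3 siNTC arrays (open points, siNTC, and filled points, siLSD1). Shown are the 15 largest rises and 15 largest falls among passing genes that are bright in at least 1 group and whose groups do not overlap. The lack of overlap in each row was thus fixed by the choice. KDM1A, the siRNA target, shows the largest fall.

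**Figure D2:**
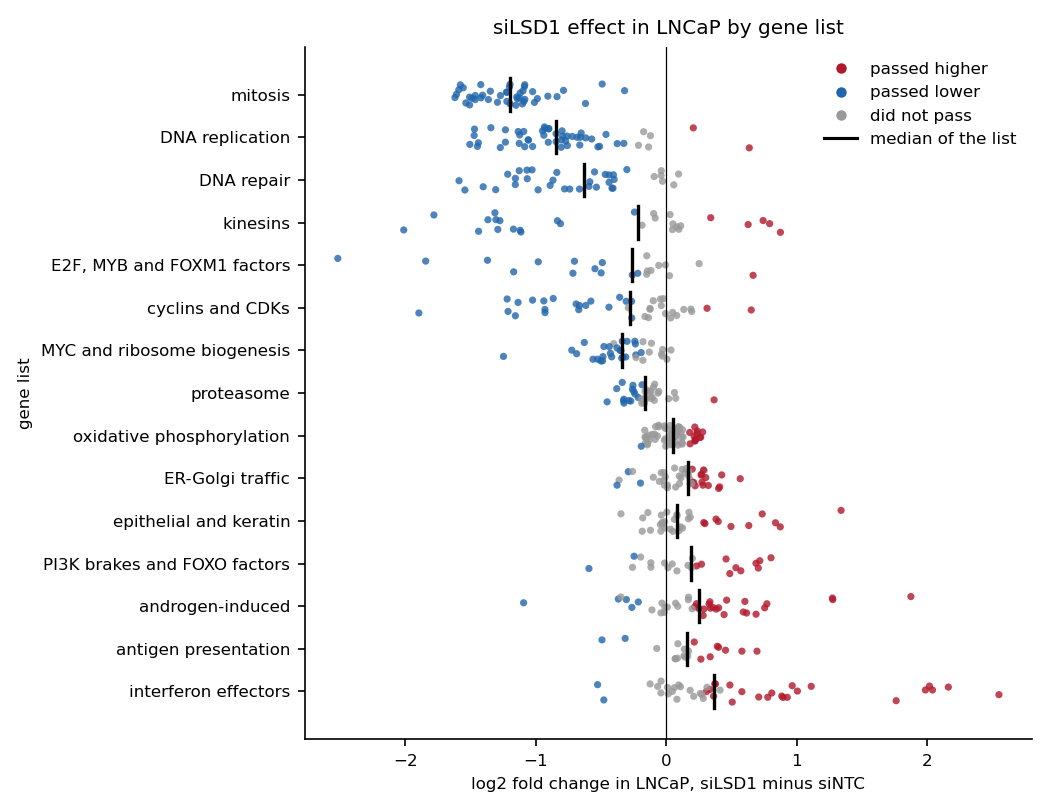
Each point is a gene, placed at its log2 fold change in LNCaP (siLSD1 minus siNTC) in the row of its list, and the black bar is the median of the list; points are red where the gene passed higher, blue where it passed lower and grey otherwise. The mitosis row lies wholly below 0 with a median of −1.20, while the interferon effector row reaches from below 0 to 2.55 for IFIT1.

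Antiviral genes of the interferon response were among the largest rises. IFIT1, which binds foreign RNA and blocks its translation, had log2 intensities of 10.82, 10.997 and 10.83 with siLSD1 and 8.15, 8.44 and 8.41 with siNTC. It thus stood 5.86-fold higher (log2 fold change 2.55 ± 0.09, adjusted p = 4.15e-06), the largest rise on the probe sets used among genes that were bright in at least 1 group. OASL, which enhances RNA sensing by RIG-I, was at 9.92, 9.98 and 9.99 with siLSD1 and 7.74, 7.81 and 7.86 with siNTC. HERC5, the ligase that attaches ISG15 to proteins, was at 8.24, 8.48 and 8.53 with siLSD1 and 6.55, 6.34 and 6.25 with siNTC. For all 3 genes the gap between the groups was several times the spread within either group.

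IFIT2 (2.02 ± 0.10) and IFIT3 (1.76 ± 0.09), both partners of IFIT1, rose with it, and on a second probe set of each, brighter in LNCaP, they rose by more (2.66 ± 0.16 and 2.73 ± 0.16), above IFIT1. RSAD2, encoding the antiviral enzyme viperin, rose from a dim control level by at least 1.70 on the log2 scale, with 7.51, 7.84 and 7.76 with siLSD1 and 5.50, 6.13 and 5.51 with siNTC. PLAAT4, a growth-suppressing phospholipase known to respond to retinoids and interferon, was at 8.83, 9.02 and 8.94 with siLSD1 and 6.85, 6.99 and 7.02 with siNTC (1.97 ± 0.07). Of the 43 interferon effectors measured 23 rose and 2 fell, with a median of 0.36, and between 23 and 26 rose when each array was left out in turn. The list did not move as 1 block. Among its members that did not pass, the antiviral GTPase MX1 was at 0.02 ± 0.09 and the deubiquitinase USP18 at −0.04 ± 0.07, both bright, while OAS2, a sensor of double-stranded RNA, was dim in both groups. OAS3, another such sensor, fell by 0.53 ± 0.07 (log2), from 8.62, 8.66 and 8.59 to 8.03, 8.24 and 8.02.

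**Figure D3:**
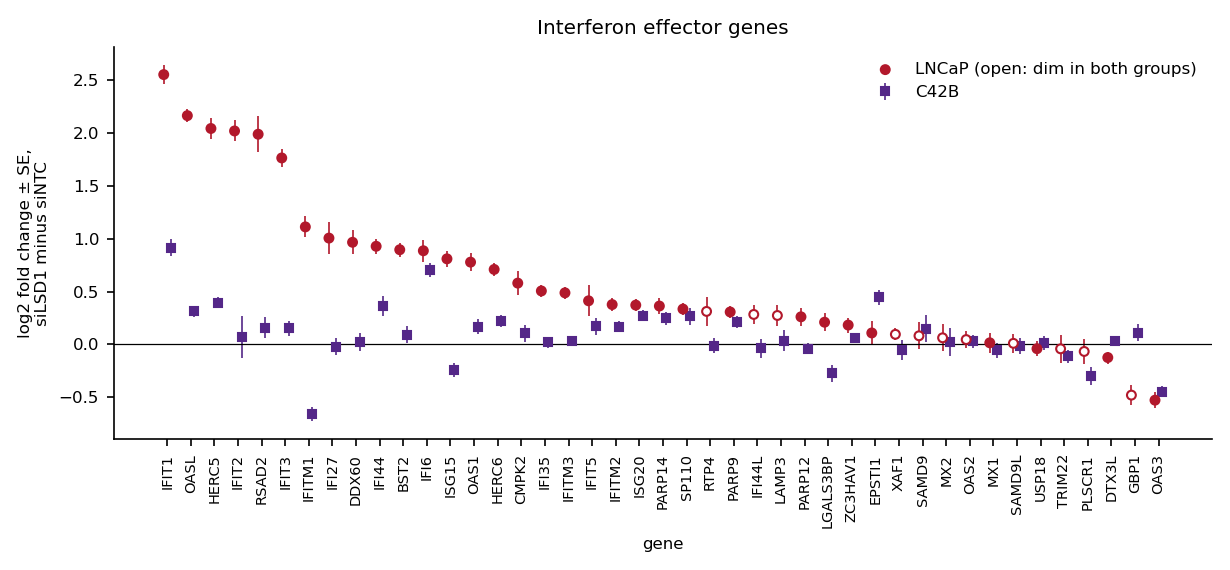
Log2 fold changes of the 43 interferon effector genes, siLSD1 minus siNTC, with bars of 1 SE from limma, in LNCaP (circles, open where both LNCaP groups are dim) and in C42B (squares), 3 arrays per group. The LNCaP circles run from 2.55 for IFIT1 to −0.53 for OAS3, and the C42B squares of the leading genes lie far below the circles.

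Genes upstream of these effectors changed in both directions. IRF9, the DNA-binding subunit of the factor that type I interferons activate, rose by 0.81 ± 0.12 (adjusted p = 0.00155), with 8.91, 8.98 and 8.89 with siLSD1 and 8.39, 8.12 and 7.86 with siNTC. RIGI, a sensor of viral RNA, rose on all 3 of its probe sets, by 0.59 ± 0.09 on the one used and by 0.98 ± 0.10 and 1.56 ± 0.11 on the others, while the sensor IFIH1 was at 0.05 ± 0.07 and the transcription factor IRF7 at 0.01 ± 0.06, neither of which passed. Of 32 genes of RNA sensing and interferon signalling 8 passed higher and 3 lower, with a median of 0.06. The 8 became 5 without siLSD1 array 2 or 3, and the 3, namely IRF3, JAK1 and the receptor subunit IFNAR1, became 1 without siLSD1 array 1 or siNTC array 3 and 0 without siLSD1 array 3. The interferons themselves gave no readable signal. All 10 measured ligand genes, IFNB1, IFNL1 and IFNG among them, were dim in both groups and none passed, though 1 passed higher without siNTC array 1.

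Some chemokines and antigen-presenting genes rose as well. CXCL10, a chemokine that attracts T cells, rose from a dim level by at least 1.96 (log2), with 7.81, 7.95 and 8.12 with siLSD1 and 5.69, 6.21 and 5.74 with siNTC. CCL5, another chemokine of this kind, rose by 0.66 ± 0.13, and NFKB1, which encodes an NF-kB subunit, fell by 0.56 ± 0.05. Of 21 NF-kB targets and chemokines 4 rose (19.0%) and 2 fell, or 1 without siLSD1 array 1 or 3, with a median of 0.01, and 13.4% of all genes rose. Of the 21 a total of 14 were dim in both groups, typical NF-kB targets such as CXCL8 and IL6 among them. Of 20 genes of antigen presentation 8 rose and 2 fell, with a median of 0.16 over the list, among them the class I heavy chains HLA-B (0.70 ± 0.06) and HLA-C (0.58 ± 0.06) and their light chain B2M (0.40 ± 0.06). The class I chains are near-identical copies, and a probe set may read more than 1 of them. The peptide transporter subunit TAP2 went the other way (−0.49 ± 0.06), as did the immunoproteasome subunit PSMB9 (−0.32 ± 0.08), whose call was lost without siLSD1 array 1 or 3, leaving 1 lower gene.

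Promoters of 4 interferon effectors are shown, those with the largest rises whose 250 bases ahead of a start hold the motif described next. Its presence in each was thus fixed by the choice. OASL and IFIT2 rose by more than RSAD2 and IFIT3 but were passed over by this rule. The 4 stretches of 120 bases come from RefSeq (GRCh38.p14), are written 5′ to 3′ in the direction of the gene, and capitals mark the motif GAAA, any pair of bases and GAAA again, on either strand, a core of the interferon-stimulated response element. They lie at chr10:89392460-89392579 (+ strand) for IFIT1, chr4:88456985-88457104 (+ strand) for HERC5, chr2:6877572-6877691 (+ strand) for RSAD2 and chr10:89327815-89327934 (+ strand) for IFIT3, each ahead of a transcription start.
IFIT1: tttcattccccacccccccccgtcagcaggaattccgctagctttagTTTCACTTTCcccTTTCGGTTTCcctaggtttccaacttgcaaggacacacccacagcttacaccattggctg
HERC5: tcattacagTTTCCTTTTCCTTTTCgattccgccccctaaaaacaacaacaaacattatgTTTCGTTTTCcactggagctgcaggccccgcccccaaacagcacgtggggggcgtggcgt
RSAD2: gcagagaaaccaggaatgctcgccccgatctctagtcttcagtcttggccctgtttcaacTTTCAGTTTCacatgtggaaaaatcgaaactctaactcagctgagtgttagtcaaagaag
IFIT3: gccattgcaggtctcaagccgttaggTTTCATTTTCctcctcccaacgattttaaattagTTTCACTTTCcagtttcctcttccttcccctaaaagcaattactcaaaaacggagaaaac
Within 250 bases ahead of a start the motif occurred in 26 of 35 interferon effectors with a promoter in the table (74.3%), against 3.39% of the 15382 measured genes that have one. It did not divide the list by response, being present in 15 of the 20 members that rose (75.0%) and in 11 of the other 15 (73.3%). Among all genes that rose at least 2-fold it was found in 10 of 96 (10.4%). A match is a description of the sequence and not a measured binding site.

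Genes of mitosis fell as a whole list. All 44 measured members passed lower, 37 of them by at least 2-fold, with a median log2 fold change of −1.20, and 43 or 44 passed when each array was left out in turn. CDC20, which activates the anaphase-promoting complex, had log2 intensities of 8.98, 9.07 and 9.02 with siLSD1 and 10.57, 10.61 and 10.75 with siNTC (−1.62 ± 0.07, adjusted p = 7.06e-06). ASPM, which focuses spindle poles, was at 7.54, 8.09 and 7.92 with siLSD1 and 9.41, 9.55 and 9.38 with siNTC, and TOP2A, the topoisomerase that untangles sister chromatids, at 8.50, 8.81 and 8.76 with siLSD1 and 10.09, 10.38 and 10.33 with siNTC. No siLSD1 array of these genes reached the lowest siNTC array. SGO2, which protects the cohesion of centromeres, fell by 1.61 ± 0.17 (log2) and NUF2, a microtubule-binding kinetochore protein, by 1.56 ± 0.12. In RNA from whole cultures, fewer cells in mitosis and less of these transcripts per cell cannot be told apart.

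Stretches ahead of 4 mitotic genes are shown, chosen in the same way as the largest falls with TTTGAA within 250 bases of a start. The presence of TTTGAA in each was thus fixed by the choice. SGO2 and NUF2 fell by more than NCAPG but were passed over by this rule. Capitals mark TTTGAA, the core of the cell cycle element (CHR) through which many of these genes are known to be timed, and CCAAT, the box bound by NF-Y, on either strand. They come from RefSeq (GRCh38.p14) and lie at chr1:43358856-43358975 (+ strand) for CDC20, chr1:197146723-197146842 (− strand) for ASPM, chr17:40417988-40418107 (− strand) for TOP2A and chr4:17810859-17810978 (+ strand) for NCAPG, a condensin subunit whose fall was 1.54 ± 0.11 (log2).
CDC20: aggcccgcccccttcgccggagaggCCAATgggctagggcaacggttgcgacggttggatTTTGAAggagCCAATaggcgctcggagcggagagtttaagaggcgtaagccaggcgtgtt
ASPM: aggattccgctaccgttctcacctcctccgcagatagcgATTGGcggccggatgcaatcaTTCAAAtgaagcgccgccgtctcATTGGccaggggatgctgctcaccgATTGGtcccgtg
TOP2A: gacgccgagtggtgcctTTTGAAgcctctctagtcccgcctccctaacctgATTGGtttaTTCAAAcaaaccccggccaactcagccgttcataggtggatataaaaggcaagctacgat
NCAPG: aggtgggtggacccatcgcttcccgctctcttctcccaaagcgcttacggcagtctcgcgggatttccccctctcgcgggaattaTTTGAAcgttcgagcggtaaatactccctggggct
TTTGAA was found within 250 bases of a start in 19 of 35 mitosis genes (54.3%) and in 52 of 168 genes lower by at least 2-fold (31.0%), against 13.9% of all genes with a promoter. CCAAT was found in 77.1% and 66.7% of these sets against 39.7%. Replication genes held TTTGAA in 1 of 47 cases (2.13%) but TTTNGCGC, a core of the E2F element, in 12 of 47 (25.5%), against 2.43% of all genes and none of the 35 mitosis genes. Each motif was searched on both strands. The sets share members, since 37 of the 44 mitosis genes are among those lower by at least 2-fold.

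Kinesins, the motors that walk along microtubules, moved in both directions. Of 28 measured kinesin genes 14 fell and 5 rose. KIF14, needed for the final separation of daughter cells, was at 6.93, 7.18 and 7.13 with siLSD1 and 9.07, 9.18 and 9.02 with siNTC (−2.01 ± 0.08). The spindle motors KIF15 (−1.78 ± 0.10), KIF18A (dim with siLSD1, a fall of at least 1.18) and KIF11 (−1.37 ± 0.15) fell too. The rises were those of motors that carry cargo, such as the neuronal KIF5C (0.87 ± 0.07), KIF13A (0.79 ± 0.07), KIF16B (0.74 ± 0.08) and KIF13B (0.63 ± 0.08). No further bright probe set of KIF5C passed. KIF5B, the heavy chain of conventional kinesin, was at −0.19 ± 0.07 and did not pass, though 1 of its dimmer probe sets did (−0.38 ± 0.11).

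DNA replication and repair genes followed mitosis with smaller changes. Of 51 replication genes 45 fell and 2 rose, with a median of −0.84, and 45 or 46 fell when each array was left out. MCM10, which helps to start replication forks, was at 7.49, 7.63 and 7.63 with siLSD1 and 9.09, 9.08 and 9.10 with siNTC (−1.51 ± 0.06). UHRF1, which carries DNA methylation to new strands (−1.47 ± 0.11), TYMS, the source of thymidylate (−1.47 ± 0.06), and WDHD1, a fork scaffold (−1.45 ± 0.12), fell as well. RPA1, the largest subunit of the protein that coats single-stranded DNA, went against the list, with 11.29, 11.30 and 11.28 with siLSD1 and 10.69, 10.67 and 10.61 with siNTC (0.64 ± 0.05, adjusted p = 9.13e-05). The other rise was that of the origin subunit ORC5 (0.21 ± 0.06), whose call was lost without any 1 array except siNTC array 1. Of 36 repair genes 30 fell and 0 rose, with 28 to 30 falling when an array was left out and a median of −0.63. They were led by the nuclease EXO1 (−1.59 ± 0.09), the helicase BRIP1 (−1.54 ± 0.15), the recombination factor RAD51AP1 (−1.40 ± 0.10) and BRCA1 (−1.31 ± 0.07). The damage kinases ATM (−0.04 ± 0.09) and ATR (−0.09 ± 0.07) did not pass.

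Regulators of the cell cycle did not move as 1 group. Of 38 cyclins, CDKs and their kinases and phosphatases 20 fell and 2 rose, with a median of −0.28. The largest fall was that of CDK19, described with Mediator, followed by the mitotic phosphatase CDC25C (−1.22 ± 0.08), the mitotic cyclin CCNB2 (−1.21 ± 0.07) and WEE1, the kinase that holds CDK1 back (−1.16 ± 0.17). No further bright probe set of CCNB2 passed. CCND1, the cyclin of early G1, was at −0.10 ± 0.06 and CCNE1, that of entry into S phase, at 0.19 ± 0.08, and neither passed. Among CDK inhibitors, CDKN1A, which encodes p21, rose by 0.51 ± 0.05, with 11.52, 11.52 and 11.46 with siLSD1 and 11.01, 10.96 and 10.996 with siNTC. CDKN1C (p57) rose by 0.55 ± 0.09, CDKN1B (p27) was at −0.06 ± 0.08 and did not pass, and CDKN2A, which encodes p16 and ARF, fell by 0.73 ± 0.07. The 2 rises of the cyclin list were those of CDK8, described with Mediator, and CCNG2 (0.31 ± 0.07), whose call was lost without siLSD1 array 3.

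Of 21 transcription factors of the E2F, MYB and FOXM1 groups 12 fell and 1 rose. E2F7 and E2F8, which repress E2F targets late in the cycle, both fell (−1.84 ± 0.14 and −1.37 ± 0.08), as did FOXM1, an activator of mitotic genes (−1.17 ± 0.05). For E2F7 the arrays read 6.13, 6.43 and 6.54 with siLSD1 and 8.05, 8.47 and 8.11 with siNTC, but no further bright probe set of E2F7 passed. E2F1 was at −0.15 ± 0.10 and did not pass, and E2F5, counted among the repressive E2Fs, rose (0.67 ± 0.07), and without siLSD1 array 1 the group held 2 rises. MYBL1 fell below 6 on the probe set used, a fall of at least 1.53, but its readout depends on the probe set. The probe set that is brightest over the LNCaP arrays alone had a log2 fold change of −0.0038 ± 0.06 (adjusted p = 0.971).

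Genes of the BCL2 family, which set the threshold for cell death, passed about as often as genes at large. BAX, which opens the outer mitochondrial membrane, was at 7.78, 7.71 and 7.59 with siLSD1 and 8.12, 8.16 and 8.37 with siNTC (−0.52 ± 0.08), a fall without overlap. Of 18 BCL2 family genes 3 rose (16.7%) and 2 fell (11.1%), beside 13.4% and 12.5% of all genes. BCL2 itself was at 0.18 ± 0.11 and BCL2L1 at 0.09 ± 0.06, and neither passed.

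Genes of growth and protein turnover fell by smaller amounts. Of 36 MYC and ribosome biogenesis genes 25 fell and 0 rose, with a median of −0.34, and 20 to 26 fell when an array was left out. LYAR, a nucleolar factor, was at 8.75, 8.62 and 8.76 with siLSD1 and 9.80, 10.06 and 10.01 with siNTC (−1.25 ± 0.08). UTP15 (−0.72 ± 0.09), which processes ribosomal RNA, POLR1E (−0.69 ± 0.06), a subunit of RNA polymerase I, and NOP58 (−0.63 ± 0.07), a core protein of small nucleolar particles, fell with it. Of 34 proteasome genes 14 fell and 1 rose, with a median of −0.17, and the 14 became 9 without siLSD1 array 2 or 3. The 1 rise, of PSMD3, was lost without any 1 array except siNTC array 3. The assembly chaperones PSMG3 (−0.38 ± 0.06) and PSMG1 (−0.33 ± 0.06) and the base ATPase PSMC3 (−0.34 ± 0.07) were among the falls.

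The kinase module of Mediator, the complex that links transcription factors to RNA polymerase II, showed opposite changes of its paralogous kinases. CDK19 was at 9.83, 9.83 and 9.83 with siLSD1 and 11.80, 11.71 and 11.67 with siNTC (−1.90 ± 0.06, adjusted p = 2.42e-06), and CDK8 at 10.76, 10.79 and 10.94 with siLSD1 and 10.24, 10.19 and 10.11 with siNTC (0.65 ± 0.07, adjusted p = 3.02e-04). The groups did not overlap for either gene. Of 4 probe sets of CDK19 a total of 3 passed lower and 1 passed higher (0.33 ± 0.08). Their shared partner cyclin C (CCNC) was at 0.05 ± 0.08 and did not pass. MED30, a subunit of the Mediator core, fell by 1.27 ± 0.05, from 7.76, 7.70 and 7.78 to 6.48, 6.46 and 6.49. Of 31 Mediator genes 8 fell and 2 rose. The 8 became 3 without siLSD1 array 1, 4 without siLSD1 array 3 or siNTC array 2, and 5 without any of the other arrays, while the calls of CDK19 and MED30 held in each case.

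Some other enzymes of histone methylation changed as well. Of 49 measured genes 14 fell (28.6%, beside 12.5% of all genes) and 7 rose (14.3%, near the 13.4% of all). The 7 became 3 without siLSD1 array 2 and 4 without siLSD1 array 3 or siNTC array 2 or 3. EZH2, the methyltransferase of a Polycomb repressive complex, was at 8.18, 8.32 and 8.38 with siLSD1 and 9.15, 9.28 and 9.20 with siNTC (−0.92 ± 0.07), whereas its paralog EZH1 rose by 0.47 ± 0.07. The heterochromatin methyltransferases SUV39H2 (−0.66 ± 0.08) and SUV39H1 (−0.51 ± 0.06) and WDR5, a scaffold of MLL-type methyltransferases (−0.60 ± 0.06), fell. KDM7A, another histone demethylase, rose by 0.51 ± 0.09.

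Androgen-induced genes passed higher more often than all genes did in serum-fed LNCaP with siLSD1. Of 39 measured genes 22 rose (56.4%, beside 13.4% of all) and 5 fell (12.8%, beside 12.5%), with a median of 0.25, and 17 to 21 rose when an array was left out. TRPM8, a cold-sensing ion channel of prostate epithelium, was at 9.51, 9.38 and 9.48 with siLSD1 and 7.55, 7.57 and 7.64 with siNTC (1.88 ± 0.06). HPGD, which inactivates prostaglandins, was at 7.46, 7.78 and 7.95 with siLSD1 and 6.61, 6.53 and 6.23 with siNTC, and the retinal dehydrogenase ALDH1A3 at 11.71, 11.78 and 11.82 with siLSD1 and 10.57, 10.51 and 10.41 with siNTC. No array overlapped between the groups for these 3 genes. The surface protease TMPRSS2 rose by 0.77 ± 0.05, and among 15 kallikreins KLK2 (0.40 ± 0.06, or 1.17 ± 0.06 on a dimmer probe set) and KLK3, which encodes PSA (0.36 ± 0.08), rose with KLK4 (0.28 ± 0.08), whose call was lost without 5 of the 6 arrays, siNTC array 3 being the exception. Classical targets that did not rise include FKBP5, a co-chaperone of steroid receptors, which fell by 0.37 ± 0.06, and the kinase SGK1 (0.07 ± 0.06), which did not pass. ATAD2, a chromatin factor that is also tied to E2F and the cell cycle, fell by 1.09 ± 0.09.

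The DHT experiment of the series, in C42B and on other arrays, gives the androgen response for the same probe sets, where 32.7% of genes passed. Of the 230 genes that DHT raised at least 2-fold 96 (41.7%) were higher in LNCaP with siLSD1 and 31 (13.5%) lower. Of the 231 that DHT lowered at least 2-fold 87 (37.7%) were also higher and 44 (19.0%) lower. Of the 13305 genes not called with DHT 8.47% were higher and 10.5% lower. Genes with a large androgen response in either direction thus lay above the 13.4% of all genes that were higher with siLSD1. Of all genes 6993 were dim in both LNCaP groups, and these held 208 of the 2640 rises. The DHT classes were not matched for brightness, whose part in these shares was not tested. Individual genes show both patterns. CSGALNACT1, which starts chondroitin sulfate chains, rose by 4.44 ± 0.06 (log2) with DHT and by at least 2.03 with siLSD1. ACP3, prostatic acid phosphatase, fell with DHT (−1.61 ± 0.05) and rose with siLSD1, with 10.64, 10.61 and 10.57 with siLSD1 and 8.90, 8.86 and 8.69 with siNTC (1.80 ± 0.07). COL5A2, a chain of type V collagen, did the same (−2.31 ± 0.06 with DHT and 1.80 ± 0.07 with siLSD1).

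**Figure D4:**
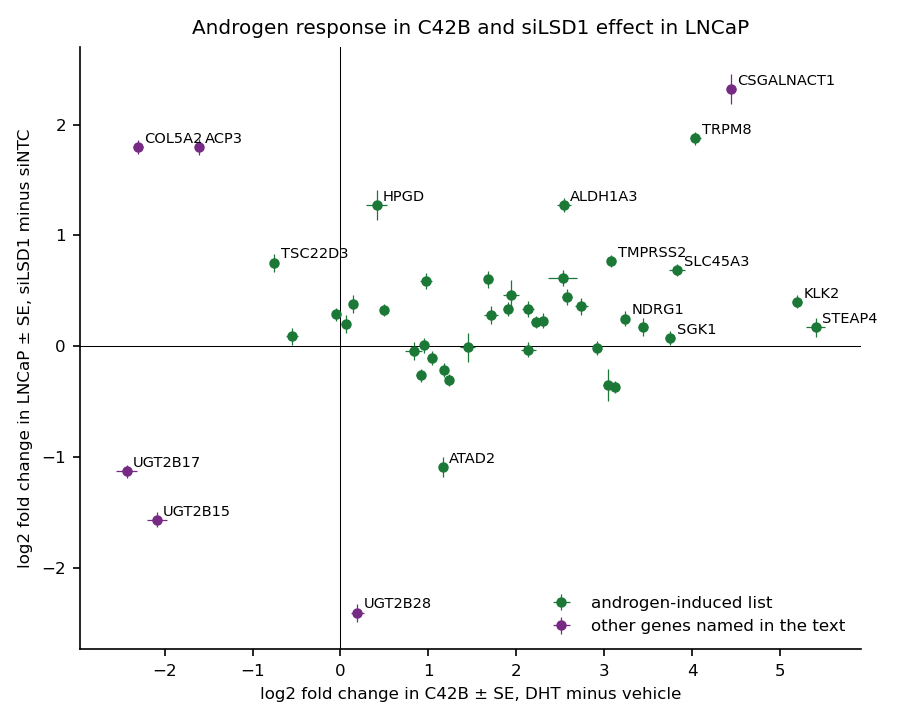
Each point is a gene, placed at its log2 fold change with DHT in C42B (horizontal, 4 arrays per group) and with siLSD1 in LNCaP (vertical, 3 arrays per group), with bars of 1 SE; green points are the 39 androgen-induced genes and purple points 6 other genes named in the text. Most green points lie to the right of 0 and above it, led by TRPM8, while UGT2B15 and UGT2B17 lie below 0 on both axes and ACP3 and COL5A2 at the upper left.

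Of the enzymes that conjugate androgens 3 fell, and some that make them rose. UGT2B28, a glucuronosyltransferase that inactivates steroids, was at 7.14, 7.31 and 7.23 with siLSD1 and 9.69, 9.73 and 9.48 with siNTC (−2.40 ± 0.08, adjusted p = 3.07e-06). UGT2B15 was at 10.20, 10.15 and 10.03 with siLSD1 and 11.70, 11.64 and 11.74 with siNTC (−1.57 ± 0.07), and UGT2B17 fell by 1.13 ± 0.06. None of the 3 overlapped between the groups, but these genes are close paralogs and their probe sets may share signal. AKR1C3, which converts weak androgens to testosterone, rose from a dim level by at least 1.64, with 7.73, 7.48 and 7.72 with siLSD1 and 6.06, 5.83 and 6.01 with siNTC. Its near-identical relatives AKR1C1 (0.03 ± 0.09) and AKR1C2 (0.13 ± 0.09) did not pass. SRD5A1, which makes DHT from testosterone, rose by 0.29 ± 0.06, and HSD17B6 by 0.33 ± 0.07. Over the 26 genes of steroid metabolism 5 rose and 5 fell, and the 5 rises became 3 without any 1 siLSD1 array. Of 23 receptors, pioneer factors and cofactors 2 rose and 2 fell. The coactivators NCOA2 (0.70 ± 0.07) and NCOA4 (0.36 ± 0.05) rose, and the pioneer factors FOXA1 (0.12 ± 0.09), GATA2 (0.07 ± 0.06) and HOXB13 (0.12 ± 0.06) did not pass, though 1 dimmer probe set of GATA2 did (0.32 ± 0.07). The fall of MED1, a Mediator subunit that binds nuclear receptors, was lost without siLSD1 array 1 or 3 or siNTC array 2 or 3, which left 1 lower gene, ETV1 (−0.34 ± 0.07).

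Inhibitors of differentiation fell, while genes of their upstream pathway moved in both directions. ID1, which blocks differentiation factors by dimerizing with them, was at 5.53, 5.99 and 5.34 with siLSD1 and 7.37, 7.73 and 7.67 with siNTC and so became dim, a fall of at least 1.59 (log2). ID3 was at 6.17, 6.09 and 6.21 with siLSD1 and 7.56, 7.79 and 7.77 with siNTC (−1.55 ± 0.08), and ID2 fell by 0.67 ± 0.11. Another bright probe set of ID2 did not pass (−0.53 ± 0.17). SMAD5, which carries the signal of bone morphogenetic proteins to such genes, fell by 1.24 ± 0.09. The receptor TGFBR1 (1.14 ± 0.14), the decoy receptor BAMBI (0.96 ± 0.08) and the receptor ACVR1 (0.70 ± 0.09) rose, although of 3 probe sets of TGFBR1 a dim one passed lower (−0.30 ± 0.07). Over the 34 genes of this list 8 rose and 4 fell, with 5 rising without siLSD1 array 2 or 3.

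S100P, a secreted calcium-binding protein, was the second largest rise on the probe sets used. Its log2 intensity was 10.62, 10.75 and 10.70 with siLSD1 and 8.14, 8.32 and 8.17 with siNTC (2.48 ± 0.07, adjusted p = 2.15e-06). Of 19 S100 genes measured, 10 of which were dim in both groups, no other rose, though 1 more did without siNTC array 1. Its neighbours in function S100A10 (0.23 ± 0.10) and S100A11 (0.00 ± 0.06) did not pass. TFF1, a secreted trefoil peptide of epithelia, was at 8.44, 8.51 and 8.51 with siLSD1 and 6.73, 6.44 and 6.48 with siNTC (1.94 ± 0.08).

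Epithelial genes rose in part. Of 34 genes of keratins, junctions and their regulators 10 rose and 0 fell, with a median of 0.08, and 2 fell without siNTC array 1. KRT19, a keratin of simple epithelia, was at 7.26, 7.39 and 7.37 with siLSD1 and 5.93, 5.87 and 6.20 with siNTC (1.34 ± 0.09). OCLN, a tight junction protein (0.87 ± 0.06, and 1.34 ± 0.07 and 1.76 ± 0.07 on dimmer probe sets), OVOL1, a factor that holds cells epithelial (0.84 ± 0.07), and the splicing regulator ESRP1 (0.74 ± 0.07) rose too. Of 22 mesenchymal genes 3 fell (13.6%, near the 12.5% of all genes) and 0 rose, or 1 without siLSD1 array 2. A total of 12 were dim in both groups. COL3A1 fell by 0.77 ± 0.13 and ACTA2 by 0.66 ± 0.06.

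Of 32 neuronal genes, many of them known targets of REST, 5 rose (15.6%, near the 13.4% of all genes) and 15 were dim in both groups. PTBP2, a splicing regulator of neurons, was at 11.12, 11.43 and 11.45 with siLSD1 and 8.87, 9.14 and 9.15 with siNTC (2.28 ± 0.11). RTN1, a reticulon of neuroendocrine cells (1.40 ± 0.06), and the RNA-binding protein ELAVL2 (0.97 ± 0.19) rose. The synaptic marker SYP (0.06 ± 0.14) and the neuronal gene ENO2 (0.03 ± 0.08) did not pass, and CHGA was dim in both groups. The 1 fall, of TUBB3, was lost without siLSD1 array 1 or 3 or siNTC array 2 or 3. Some retinoid enzymes beside ALDH1A3 rose, namely RDH12 (1.25 ± 0.07), RDH10 (0.96 ± 0.07) and DHRS3 (0.58 ± 0.08). Of the 23 genes of that pathway 5 were higher (21.7%, beside 13.4% of all genes) and 1 was lower. The list median was 0.002, and 8 of its genes were dim in both groups. The 1 fall, of RDH5, was lost without any 1 array except siNTC array 3.

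Growth factor genes moved in both directions. FGFR3, a receptor for fibroblast growth factors, was at 7.83, 7.996 and 8.07 with siLSD1 and 6.26, 6.23 and 6.39 with siNTC (1.68 ± 0.08), and IGF1R, that for insulin-like growth factors, rose by 0.92 ± 0.09. EGF, the epidermal growth factor, was at 6.44, 6.48 and 6.49 with siLSD1 and 7.52, 7.83 and 7.80 with siNTC (−1.25 ± 0.09), and IGF1 fell on both of its probe sets that were bright in the 2 groups (−0.24 ± 0.07 and −0.40 ± 0.08) and by at least 0.30, to below 6, on the one used. TGFA, another ligand of the EGF receptor, rose by 0.82 ± 0.11, though its other bright probe set did not pass (0.08 ± 0.10). EGFR itself was at 0.01 ± 0.05 and did not pass, though another probe set did (−0.23 ± 0.06). Of 39 genes of growth factor signalling and its ERK feedback 8 rose and 5 fell. Of 23 genes of PI3K signalling, chosen for its brakes and the FOXO factors, 10 rose and 2 fell, with a median of 0.19. They include PIK3CB, a catalytic subunit of PI3K itself (0.80 ± 0.06), IRS2, an adaptor that activates it (0.72 ± 0.07), TXNIP, which limits glucose uptake (0.71 ± 0.06), and the transcription factor FOXO1 (0.69 ± 0.12). PHLPP2, a phosphatase that acts on AKT, fell (−0.59 ± 0.07), while the second fall, of KLF6, was lost without siLSD1 array 1 or 3 or siNTC array 1 or 3.

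Genes of the secretory pathway moved in both directions, and their counts depended on single arrays. Of 40 ER chaperone and degradation genes 15 rose and 5 fell, with a median of 0.13, and 9 rose without siNTC array 2 and 3 fell without siLSD1 array 2 or 3. ERO1B, an oxidase of secretory cells, was at 8.70, 8.99 and 9.14 with siLSD1 and 7.50, 7.56 and 7.60 with siNTC (1.39 ± 0.11). The co-chaperone DNAJB9 (0.86 ± 0.07) and the degradation factors EDEM1 (0.73 ± 0.06) and EDEM2 (0.72 ± 0.06) rose, while TMX1, a membrane-bound thioredoxin, fell from 11.33, 11.86 and 11.94 to 9.48, 9.99 and 9.99. Of 45 ER-Golgi traffic genes 15 rose and 3 fell, with a median of 0.17, and 9, 7 and 7 rose without siLSD1 array 1, 2 and 3, while 5 fell without siNTC array 1. ARFGAP3 (0.57 ± 0.08), which releases the COPI coat, and SEC31A (0.42 ± 0.05), of the COPII coat, kept their calls, though no further bright probe set of SEC31A passed. Of 45 enzymes of proteoglycan and mucin glycans 12 rose and 6 fell, and the 6 became 3 without siLSD1 array 2 or 3 or siNTC array 3. Beside CSGALNACT1 the sulfotransferase CHST15, which acts on the same chains, rose from a dim level by at least 1.07, and GALNT2, which starts mucin glycans, by 0.66 ± 0.09, while its relative GALNT3 fell by 0.70 ± 0.08.

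Metabolic genes moved in both directions. SCD5, a desaturase that makes monounsaturated fatty acids, was at 8.05, 7.89 and 7.996 with siLSD1 and 6.47, 6.34 and 6.45 with siNTC (1.56 ± 0.07), though its other bright probe set did not pass (−0.08 ± 0.09), and the elongase ELOVL7 rose by 0.82 ± 0.06. Of 32 genes of fatty acid synthesis 7 rose, or 4 without siLSD1 array 2. The 1 fall, of DGAT2, was lost without any 1 array except siNTC array 2. Of 20 cholesterol genes 5 rose and 5 fell, with INSIG1, which retains the sterol sensor in the ER, at −0.90 ± 0.14 and STARD4, a sterol carrier, at 0.56 ± 0.09. Of 38 glycolysis and hypoxia genes 8 rose, or 5 without siLSD1 array 2, and 8 fell. The 8 falls became 2 without siLSD1 array 3, 4 without siLSD1 array 1 or siNTC array 3 and 5 without siNTC array 2. EPAS1, which encodes HIF-2 alpha, rose from a dim level by at least 0.40. Of 35 genes of the amino acid response 10 fell, among them MTHFD2 of mitochondrial folate metabolism (−0.96 ± 0.06), and 5 rose. The falls became 5 without siLSD1 array 1 or siNTC array 3 and 6 without siLSD1 array 2 or 3, and the rises became 3 without siLSD1 array 2 or 3 or siNTC array 2 or 3. SLC7A11, the cystine transporter, rose by 0.86 ± 0.07 on the brightest of its 3 probe sets, although another, much dimmer one passed lower (−0.25 ± 0.08). Of 64 genes of oxidative phosphorylation 12 rose with a median of 0.05, which became 2 without siLSD1 array 1 or 3, 4 without siLSD1 array 2 or siNTC array 2 and 6 without siNTC array 3, so no shift of the list is read from the count. Of 12 housekeeping genes 3 rose and 3 fell, with HPRT1 at −0.51 ± 0.05 and TBP at 0.41 ± 0.07.

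The same siRNA label was compared with its control in C42B, and the effects were tested against each other over the 12 siRNA arrays. Line, serum, transfection and experiment change together here, the labelling kit may do so too, and they cannot be told apart. In C42B 1713 genes (8.66%) were higher and 1856 (9.39%) lower with siLSD1. The 2 comparisons share no array. Of the LNCaP rises 1047 (39.7%) were also called higher in C42B, which is 61.1% of the C42B rises. Of the LNCaP falls 1116 (45.0%) were also called lower there, or 60.1% of the C42B falls. Of the 131 genes at least 2-fold higher in LNCaP 102 (77.9%) were called higher in C42B, and of the 204 at least 2-fold lower 175 (85.8%) were called lower. The C42B count of 3569 calls itself became 2111 and 1907 without its siLSD1 array 2 or 3 and 2341 and 2326 without its siNTC array 2 or 3.

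The size of the effect differed in 2300 genes (11.6%), 1200 of them with a value above that in C42B (6.07%) and 1100 below it (5.56%). The fall of KDM1A was −2.78 ± 0.08 in LNCaP and −2.40 ± 0.08 in C42B, and its difference did not pass (−0.37 ± 0.12, adjusted p = 0.0634). Mitosis genes fell in both lines, 44 of 44 in LNCaP and 37 of 44 in C42B, but by more in LNCaP. The medians were −1.20 and −0.44 (log2), and the difference passed below for 42 of the 44. For DNA replication the medians were −0.84 and −0.34, and the difference passed below for 41 of 51. Among interferon effectors 17 of 43 passed above and 1 below, with medians of 0.36 in LNCaP and 0.06 in C42B. In C42B itself 10 of the 43 passed higher and 3 lower, beside 8.66% and 9.39% of all genes, with IFIT1 at 0.92. Androgen-induced genes were split, with 8 above and 11 below of 39, and medians of 0.25 and 0.23.

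**Figure D5:**
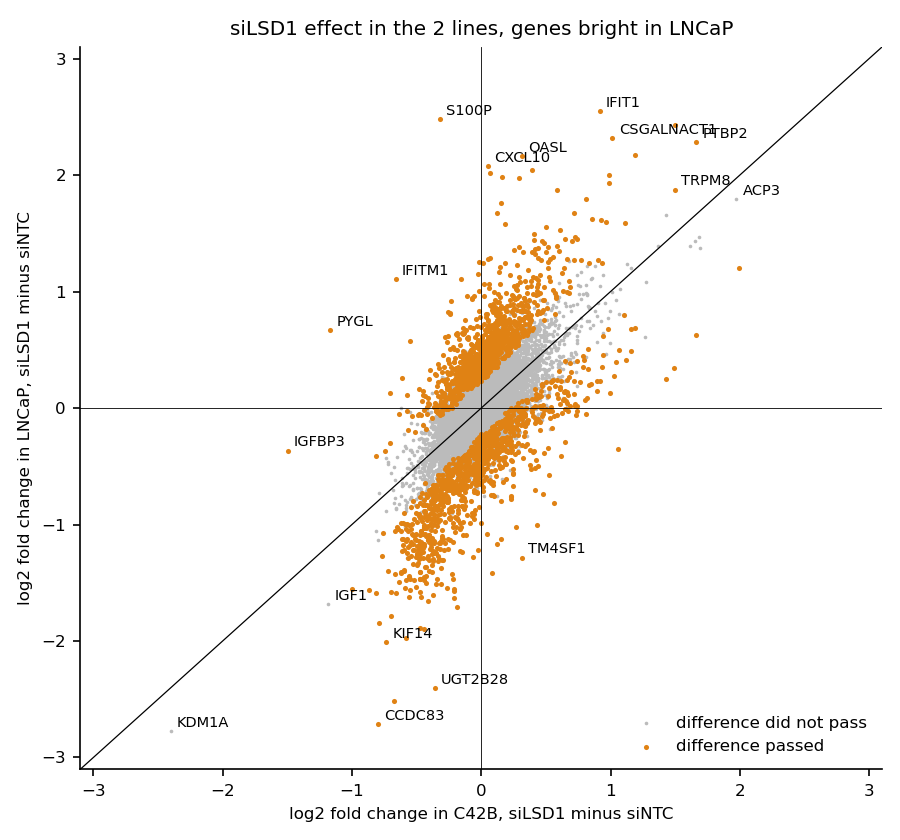
Each point is a gene bright in at least 1 LNCaP group, placed at its log2 fold change with siLSD1 in C42B (horizontal) and in LNCaP (vertical), 3 arrays per group and line, orange where the difference between the lines passed. KDM1A lies near the diagonal line of equal effects, whereas IFIT1, OASL and CXCL10 lie far above it, and S100P, PYGL and IFITM1 are higher in LNCaP and lower in C42B.

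The largest differences above C42B were those of S100P, CXCL10, IFIT2, OASL, the glycogen phosphorylase PYGL and RSAD2. S100P rose by 2.48 ± 0.07 in LNCaP and fell in C42B (−0.32 ± 0.06), a difference of 2.80 ± 0.09. PYGL did likewise, with 0.67 ± 0.08 and −1.17 ± 0.10. IFIT2 (0.07 ± 0.20), RSAD2 (0.16 ± 0.10) and CXCL10 (0.05 ± 0.09) did not pass in C42B, though the second probe set of IFIT2 rose there (0.87 ± 0.08), less than in LNCaP (difference 1.78 ± 0.19, adjusted p = 1.73e-04). The largest differences below were led by UGT2B28, whose value in C42B was −0.36 ± 0.10 and did not pass. Opposite calls were rare. Of the 2227 genes passing in both lines 2163 went the same way and 64 did not, 39 higher and 25 lower in LNCaP. They include IFITM1, a membrane protein that restricts viral entry (1.11 ± 0.10 in LNCaP and −0.66 ± 0.07 in C42B), ISG15, the ubiquitin-like modifier (0.81 ± 0.07 and −0.24 ± 0.06), and TM4SF1, a surface protein of tumour cells (−1.28 ± 0.07 and 0.32 ± 0.05). By contrast ACP3 rose by 1.80 ± 0.07 in LNCaP and 1.97 ± 0.05 in C42B, with a difference of −0.18 ± 0.08 that did not pass.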

How the data were processed

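RNA from the 6 LNCaP cultures was hybridized to Affymetrix 3′ arrays with 54675 probe sets. The authors deposited 1 intensity per probe set and array on a linear scale, and per the submitters' processing notes the tools were RMA and affy, whose versions the sources used here do not state. The raw scans were not used. Which of the labelling kits in the labels served which sample is unknown. Log2 of the deposited intensity was taken without further normalization or filter. Of the probe sets 41091 name 1 gene, and the brightest over all 20 arrays stood for each of 19775 genes. The 1801 that name several genes and the 11721 that name none were left out.

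Each comparison was tested two-sided by limma 3.58.1 (lmFit and eBayes, R 4.3.3) on its own arrays with no covariate, p-values were adjusted by Benjamini-Hochberg over all genes, and an adjusted p under 0.05 was a pass. The lines were set against each other in 1 contrast over 12 arrays. Values after ± are SEs of the fit, with 3 arrays per group (4 with DHT). A group mean below 6 (log2) was dim, and where 1 group was dim the change from 6 is given as a bound. Counts and plots were made in Python 3.11.15 with pandas 2.3.3, numpy 2.4.6 and matplotlib 3.10.9. The fit was tested on simulated data. The number of arrays limits the precision.

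Named genes were drawn from KDM1A and sets picked by rule. These were the 25 largest rises and 25 largest falls that passed, separated the groups and were bright in at least 1 of them. The sets also held up to 4 passing bright members per direction of each of 40 gene lists. The last were the 6 genes per direction that differed most between the lines. With KDM1A these sets hold 248 genes, some of which are not named in the text. List members of known role that did not pass were named too and are not among the 248. NCAPG was named for its promoter and IFITM1 and ISG15 after their values were seen. The genes and lists were chosen with earlier results of these data known, so list counts are descriptions. Promoters came from RefSeq (GRCh38.p14) and were searched over the 250 bases ahead of each start. Replicate numbers did not pair the arrays: same-numbered siLSD1 and siNTC arrays correlated around their group means at 0.20, 0.046 and −0.019. Alternatives were the mean of all probe sets, the brightest probe set over the compared arrays, bright genes alone, quantile normalization, median centring, a single fit of all 20 arrays, arrayWeights, eBayes with trend and robust, a replicate block, and leaving out each array. Further probe sets of named genes were read after the data were seen.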

Additional observations from a re-analysis of the deposited data

Results flagged for a closer look

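The effect of siLSD1 differed between LNCaP and C42B, by the test of the difference itself, for 1200 genes in the upward and 1100 in the downward direction. It also differed for 154 of the 248 genes picked by rule, which are not all named in the text. On the log2 scale the effect in LNCaP exceeded that in C42B by 2.80 for S100P, 2.03 for CXCL10, 1.95 for IFIT2, 1.85 for OASL, 1.84 for PYGL and 1.83 for RSAD2. It lay below that in C42B, with differences of −2.04 for UGT2B28, −1.92 for CCDC83, −1.85 for MYBL1, −1.60 for TM4SF1, −1.52 for ZNF367 and −1.51 for FAM111B. Line, serum, transfection and experiment, and perhaps the labelling kit, change together between these sets of arrays and cannot be told apart.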

How the results depend on the processing

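The LNCaP counts of 2640 higher and 2480 lower genes stayed within 1.5 times under every alternative run, with 1949 to 2955 higher and 1843 to 2689 lower when an array was left out. Median centring moved the median of all genes from 0.011 to −0.023 (log2) and gave 2268 higher and 2854 lower, so that 44.3% rather than 51.6% of the calls were higher. With the replicate number as a block 2575 genes were higher and 2353 lower, and 13 of the 247 genes picked by rule other than KDM1A lost their call. Of these 247 genes 192 kept their call in all 15 alternatives, 54 lost it in at least 1 and 3 changed sign, namely ERO1A (0.058) and ARF3 (0.37) with the mean of all probe sets and DGAT2 (0.071) with the brightest LNCaP probe set. Other bright probe sets of ERO1A (0.58) and ARF3 (0.74 and 0.57) passed higher, opposite to the ones used. The cause of the sign changes was not tested. The C42B count of 3569 calls ran from 1907 to 3962 when a C42B array was left out, and with arrayWeights the difference between the lines was called above for 1831 and below for 1726 genes. Between 3 arrays and 3, changes near the spread of replicate arrays cannot be resolved, and dim probe sets give bounds.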

Other observations

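Several of the largest changes belong to none of the groups described in the report. HMGN2P46, annotated as a pseudogene related to the nucleosome-binding protein HMGN2, rose by 2.43 ± 0.08 (log2), with 11.50, 11.35 and 11.42 with siLSD1 and 9.15, 8.90 and 8.93 with siNTC, and transcripts of related genes may reach such a probe set. BEND4, a BEN domain protein, rose by 1.998 ± 0.07 and HOPX, a homeodomain protein that does not bind DNA, by 1.66 ± 0.10. CD55, which protects cells from complement, rose from a dim level by at least 1.09, and NUCB2, the precursor of nesfatin, by 1.62 ± 0.11. Among the falls were CCDC83 (dim with siLSD1, a fall of at least 1.45), the zinc finger gene ZNF367 (−1.71 ± 0.11), CKAP2L, a spindle protein (−1.66 ± 0.11), and ESCO2, which acetylates cohesin during replication (−1.63 ± 0.18).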
